A study of Mus musculus with 3 samples.

Results

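Piezo1, Piezo2, Trpv4, Trpc1, Trpc6, Trpm4 and Trpm7 are ion channel genes linked to the sensing of membrane stretch, and their rows were taken from the count matrices by symbol. All 7 symbols were found among 29994 genes. The levels were described in cell classes gated on marker genes of ventricular tissue from C57B6 mice, in 3 droplet libraries (10x Genomics) that each pooled 3 ventricular hearts. The Sham library came from vehicle-treated mice that had a sham operation. The TAC library came from vehicle-treated mice with transverse aortic constriction, which narrows the aorta and loads the left ventricle with pressure. The TAC+ART library came from mice with the same constriction given artesunate, an artemisinin drug used against malaria, in a series about drug screening for cardiac fibrosis. With 1 library a group there was no replicate and no test, so every difference describes these libraries, and the 95% intervals cover counting error only.

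Piezo1 and Piezo2 encode large channel subunits that form trimers opened by tension in the membrane, and both let calcium enter the cell. Piezo1 is best known from endothelium, where it responds to blood flow, and Piezo2 from sensory neurons of touch and body position. TRP channels form tetramers: TRPV4 responds to osmotic and mechanical stimuli and to lipid metabolites, and TRPC1 and TRPC6 pass calcium downstream of receptors coupled to phospholipase C. TRPC6 is opened by diacylglycerol and has been studied upstream of calcineurin and NFAT in heart and vessel wall. TRPM4 is opened by internal calcium but passes sodium and potassium, and TRPM7 joins a channel for divalent cations, magnesium among them, to a kinase domain. How directly stretch opens the TRP members is debated.

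The Sham library held 3752 barcodes and 17710689 UMIs (counted RNA molecules), the TAC library 7413 and 37658150, and the TAC+ART library 6856 and 33364667. After filters 3638, 6972 and 6480 barcodes were kept, called cells here although the sources do not say whether cells or nuclei were loaded, and 20 to 27 barcodes were shared by each pair of libraries. Classes named after their markers, as in "fibroblast-like", were reported where each library held at least 50 cells: fibroblast-, cardiomyocyte-, endothelial-, endocardial-, lymphatic endothelial-, macrophage- and pericyte-like. The 10 cardiomyocyte markers together held 57029 to 62154 of each 1000000 UMIs (CPM) in cardiomyocyte-like cells, and all 10 were highest in that class. The same markers stood at 4053 to 4858 CPM in fibroblast-like cells and at 5007 to 6572 CPM in pericyte-like cells, classes that should lack them. Cardiomyocyte-like cells of TAC differed in quality from the others: their median mitochondrial share was 2.61% against 0.541% in Sham and 0.813% in TAC+ART. Markers of other classes moved in them too: the 10 fibroblast markers summed to 702, 2301 and 2107 CPM, the 9 endothelial markers to 313, 720 and 536 CPM and the 10 macrophage markers to 136, 446 and 310 CPM, every one of them with UMIs in all 3 libraries. The part of these markers in the cardiomyocyte-like ratios of Piezo1, Trpc1, Trpm4 and Trpm7 was not tested.

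Levels below are CPM, the UMIs of a gene among each 1000000 UMIs of the same class and library. They are compared between classes and libraries for 1 gene at a time. The members differed in where they were found. Piezo1 was highest in endothelial-like cells, Piezo2 in lymphatic endothelial-like cells, Trpv4 in macrophage-like cells, Trpc1 and Trpc6 in pericyte-like cells, and Trpm4 and Trpm7 in cardiomyocyte-like cells, each by the median over the 3 libraries. Those medians in the highest class were 332 times the lowest class for Piezo2, 41.3 times for Trpv4, 35.3 times for Trpc1 and 11.6 times for Piezo1. For Trpm4 and Trpm7 they were only 1.64 and 1.32 times the lowest class, so by the median these genes were found in all 7 classes at like levels. Single libraries spread more in cardiomyocyte-like cells, with 35.1 to 64.2 CPM of Trpm4 and 201 to 374 of Trpm7. The 201 CPM, in TAC, was the lowest Trpm7 value of any of the 7 classes.

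**Figure D1:**
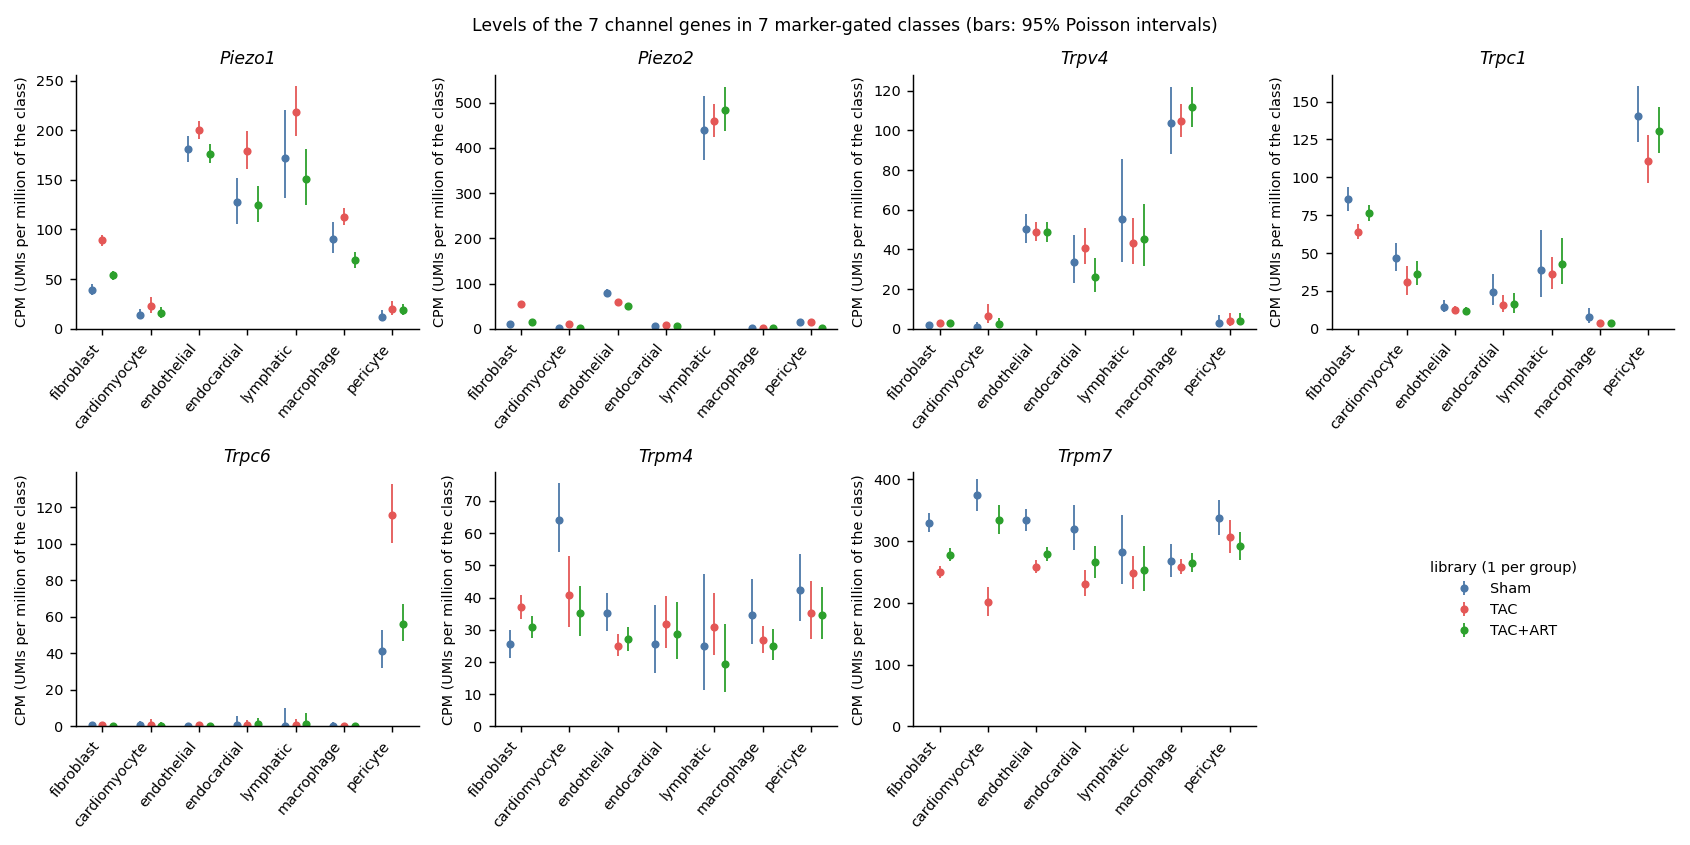
Level of each channel gene (CPM, vertical axis, each panel with its own scale) in the 7 classes, with 1 point per library and bars for the exact Poisson 95% interval of the count. Piezo2 stands at 440 to 484 CPM in lymphatic endothelial-like cells and Trpc6 is near 0 outside pericyte-like cells, while Trpm7 lies between 201 and 374 CPM in every class.

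Of 49 pairs of a member and a class, 36 had at least 50 UMIs in Sham and TAC together. A ratio of at least 2 or at most 0.5 is called past 2-fold below. In TAC over Sham 3 pairs were past 2-fold, all of them higher in TAC. Among fibroblast-like cells these were 2 of 5 members, Piezo1 and Piezo2, where 7.51% of 13493 genes were higher past 2-fold and 5.15% lower. In pericyte-like cells it was 1 of 6 members, Trpc6, where 3.96% of 8430 genes were higher and 1.46% lower. In cardiomyocyte-like cells 0 of 4 members were past 2-fold, in a class where 22.3% of 8177 genes were, and in the other 4 classes 0 of 21 pairs were, against 7.35% of all pairs of a gene and a class. In TAC+ART over TAC no member was higher past 2-fold and 2 pairs were lower. They were Piezo2, 1 of 6 members in fibroblast-like cells, where 2.67% of 14189 genes were higher and 1.80% lower, and Trpc6, 1 of 5 members in pericyte-like cells, where 1.23% of 8997 genes were higher and 0.956% lower. None of 4 members in cardiomyocyte-like cells was past 2-fold, where 7.58% of genes were, and 0 of 21 pairs in the other 4 classes, against 3.20%. Both comparisons use the TAC library, so a high TAC value raises the first ratio and lowers the second.

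**Figure D2:**
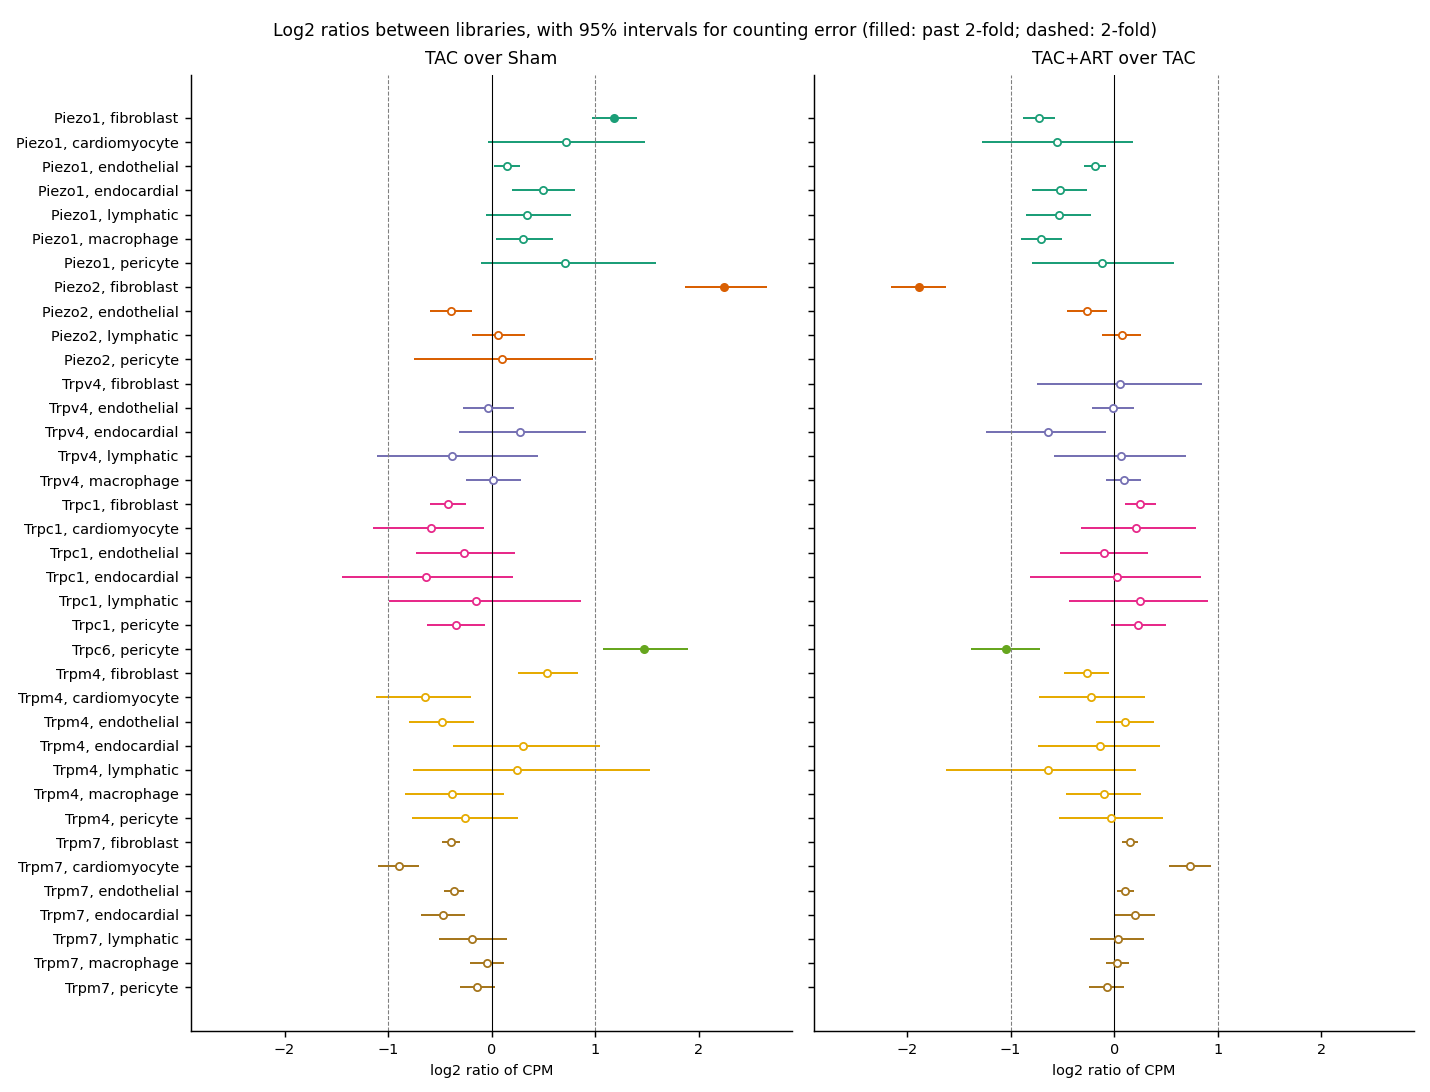
Log2 ratio of CPM for each channel gene in each class (horizontal axis), TAC over Sham on the left and TAC+ART over TAC on the right, for pairs with at least 50 UMIs in both libraries together. Bars are exact 95% intervals for counting error and dashed lines mark 2-fold. Piezo2 in fibroblast-like cells lies farthest out on both sides (2.24 and -1.88), and all Trpm7 points of TAC over Sham lie below 0.

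Piezo1 (ENSMUSG00000014444.17) lies on chromosome 8, bases 122481698 to 122551329 of GRCm38 on the minus strand, and its longest coding transcript in GENCODE M21 has 51 exons. The annotated protein-coding locus Gm20388 spans the gene on the opposite strand and Ctu2 overlaps its last 2441 bases, and no source used here states whether the counting used strand. Its promoter is shown because Piezo1 was past 2-fold in TAC. The sequence runs from 250 bases before to 50 bases after the start (RefSeq, GRCm38.p6, chr8:122551280-122551579, minus strand), and capitals mark the only match among the motifs searched.
Piezo1: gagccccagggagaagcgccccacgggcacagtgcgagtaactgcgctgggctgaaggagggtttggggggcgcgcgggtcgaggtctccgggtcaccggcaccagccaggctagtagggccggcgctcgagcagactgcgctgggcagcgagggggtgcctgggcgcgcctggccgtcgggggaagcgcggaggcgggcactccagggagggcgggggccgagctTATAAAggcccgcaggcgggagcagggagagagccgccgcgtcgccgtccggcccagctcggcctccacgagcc
The capitals are a TATA box (TATAAA) at positions -24 to -19 from the start, letters that 13.62% of 32851 mouse promoters of the same length hold on 1 strand or the other. The window is 75.0% G and C with 34 CG pairs, against medians of 52.67% and 7 over all promoters.

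Endothelial-like cells had 181 CPM of Piezo1 in Sham (168 to 195), 200 under TAC (191 to 210) and 176 under TAC+ART (167 to 186). These 3 levels lay close together. Lymphatic endothelial-like cells, with 172, 218 and 151 CPM, overlapped both the endothelial-like range and that of endocardial-like cells, which had 127, 179 and 124. Macrophage-like cells had 90.8, 113 and 69.1 CPM, below every endocardial-like value. Fibroblast-like cells overlapped the macrophage-like range. Pericyte-like cells at 12.2 to 20.2 CPM and cardiomyocyte-like cells at 13.9 to 22.9 CPM were lowest and could not be ordered. Of the small classes, epicardial-like cells had 320, 194 and 196 CPM on 23 to 29 UMIs.

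Piezo1 was higher in TAC than in Sham in 7 of 7 classes, with the interval above 0 in 4, and lower in TAC+ART than in TAC in 7 of 7, with the interval below 0 in 5. The largest difference was in fibroblast-like cells, which had 39.2 CPM in Sham (34.1 to 44.8), 88.9 under TAC (83.3 to 94.8) and 53.8 under TAC+ART (49.4 to 58.5), on 211, 933 and 545 UMIs. TAC was highest and Sham lowest, and none of the 3 intervals met. The log2 ratio was 1.18 for TAC over Sham (0.97 to 1.40) and -0.72 for TAC+ART over TAC (-0.88 to -0.57). The share of fibroblast-like cells with a Piezo1 UMI was 15.1%, 36.9% and 22.9%, and 4.30%, 8.93% and 5.48% once each cell was thinned to 1000 UMIs. Median depth differed, at 4648, 6220.5 and 5299 UMIs a cell. The other classes moved less: macrophage-like cells had log2 ratios of 0.31 (0.04 to 0.59) and -0.70 (-0.90 to -0.50), endocardial-like cells 0.49 (0.20 to 0.80) and -0.53 (-0.79 to -0.27). Endothelial-like cells had 0.15 (0.02 to 0.27) and -0.19 (-0.29 to -0.08). In cardiomyocyte-like cells the ratios of 0.72 and -0.55 rest on 31 to 37 UMIs a library, and with graph clusters in place of the gate they were -0.05 and 0.27, the opposite directions.

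Piezo2 (ENSMUSG00000041482.17) lies on chromosome 18, bases 63010213 to 63387183 on the minus strand, and has 54 exons in its longest coding transcript. It spans 376.97 kb, the longest of the 7 loci. Lymphatic endothelial-like cells had 440 CPM in Sham (374 to 514), 460 under TAC (425 to 498) and 484 under TAC+ART (436 to 536). These levels did not differ beyond counting error, with log2 ratios of 0.06 (-0.19 to 0.33) and 0.07 (-0.11 to 0.26). A Piezo2 UMI was found in 63.2%, 55.0% and 58.3% of these cells. Every lymphatic endothelial-like value was above every value of the next class, endothelial-like cells, at 78.2, 59.5 and 49.6 CPM. The TAC value of fibroblast-like cells fell within the endothelial-like range. Pericyte-like cells had 14.1, 15.1 and 2.28 CPM on 23, 27 and 5 UMIs, under the minimum in TAC+ART and TAC together. Endocardial-like cells had 6.10 to 7.66 CPM, cardiomyocyte-like cells 2.11 to 9.31 and macrophage-like cells 1.16 to 2.13, and the ranges of neighbours in that order overlapped.

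In fibroblast-like cells Piezo2 stood at 11.3 CPM in Sham (8.66 to 14.5), 54.0 under TAC (49.7 to 58.6) and 14.6 under TAC+ART (12.4 to 17.2), on 61, 567 and 148 UMIs. TAC stood apart, while the intervals of Sham and TAC+ART overlapped. The log2 ratios were 2.24 (1.87 to 2.66) and -1.88 (-2.16 to -1.62), the largest of any member in any class past the minimum. The share of cells with a Piezo2 UMI was 2.56% in Sham, 12.3% under TAC and 3.90% under TAC+ART, that is 28, 210 and 72 cells, and 0.915%, 4.35% and 0.813% after thinning to 1000 UMIs. In macrophage-like cells, of median depth 4292 to 4954.5 UMIs, the unthinned share was 0.647%, 1.11% and 0.445%. Fibroblast-like cells with the gene held 2.18, 2.70 and 2.06 UMIs each, and the highest single cell held 17, 20 and 8. The number of cells with the gene differed more between libraries than the UMIs in each such cell. Markers of lymphatic endothelium, where Piezo2 is highest, also differed in fibroblast-like cells. The 6 markers, each with UMIs in all 3 libraries, summed to 52.5, 107 and 74.3 CPM, against 10544 to 11714 in lymphatic endothelial-like cells. In the 862, 951 and 1265 fibroblast-like cells without a UMI of any of them, a subset chosen after the values were seen, the Piezo2 ratios were 2.40 and -1.91 and those of Piezo1 1.09 and -0.70.

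Fibroblast-like cells of the 3 libraries fell mostly into different graph clusters. The clustering had no correction for library. With 1 library a group, a difference in kind of cell cannot be told apart from an effect of the library. Of graph clusters made without the 7 channel genes, cluster 8 held most Sham cells of the class (734 of 1093), cluster 1 most TAC cells (1352 of 1702) and cluster 3 most TAC+ART cells (1087 of 1844). Piezo2 in cluster 1 stood at 240 CPM in Sham (172 to 327, 27 cells), 62.0 under TAC (56.8 to 67.5) and 58.0 under TAC+ART (46.7 to 71.1, 267 cells). Within this cluster TAC was not above the others. The Sham value rests on 40 UMIs, a large part of them from the highest single Sham cell given above. Its interval does not cover the spread between cells. Cluster 3 had 6.54, 9.46 and 2.40 CPM on 3, 4 and 14 UMIs, and cluster 11, with 149 to 274 cells a library, had 5.53, 8.50 and 8.52. In cluster 8 the 734 Sham cells had 3.19 CPM (1.59 to 5.70), the 18 TAC cells 81.7 (37.3 to 155) and the 149 TAC+ART cells 29.5 (19.3 to 43.2). Piezo1 in cluster 1 was 66.1 CPM in Sham (33.0 to 118), 95.7 under TAC (89.3 to 102) and 59.9 under TAC+ART (48.4 to 73.2). For Piezo1 the TAC and TAC+ART intervals within the cluster did not meet. In cluster 11 Piezo1 had 41.9, 63.3 and 63.3 CPM, and in cluster 8 it had 35.6, 72.6 (31.3 to 143, on 8 UMIs) and 44.2. Cluster 3 had 41.4, 35.5 (19.8 to 58.5, on 15 UMIs) and 50.6 CPM of Piezo1. The TAC value was the lowest in cluster 3, with an interval that overlapped both others.

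A UMI of Postn, which encodes the matrix protein periostin of activated fibroblasts, was found in 8.05% of fibroblast-like cells under Sham, 84.4% under TAC and 48.9% under TAC+ART. Cells with a Postn UMI had Piezo2 at 68.7 CPM in Sham (47.6 to 96.0), 57.3 under TAC (52.5 to 62.5) and 21.4 under TAC+ART (17.6 to 25.7). The Sham value rests on 34 UMIs in 88 cells. Among these cells Sham and TAC overlapped and TAC+ART was low, with log2 ratios of -0.28 (-0.76 to 0.28) and -1.42 (-1.73 to -1.12). Cells without a Postn UMI had 5.52, 33.6 and 7.36 CPM, and TAC was highest (2.60, 1.90 to 3.34, and -2.19, -2.85 to -1.54). In TAC these were 266 cells of median depth 5326 UMIs, against 6439 in cells with a Postn UMI. The split was not thinned, and a cell without a Postn UMI may still express Postn. Piezo1 in cells with a Postn UMI was 44.4, 91.8 and 58.4 CPM and in cells without one 38.6, 70.7 and 48.9. TAC was highest on both sides, with ratios over Sham of 1.02 (0.44 to 1.73) and 0.87 (0.51 to 1.23). Of fibroblast-like cells with a Piezo2 UMI, 28.6%, 42.4% and 22.2% also had one of Piezo1 (8, 89 and 16 cells), beside 15.1%, 36.9% and 22.9% of all fibroblast-like cells.

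**Figure D3:**
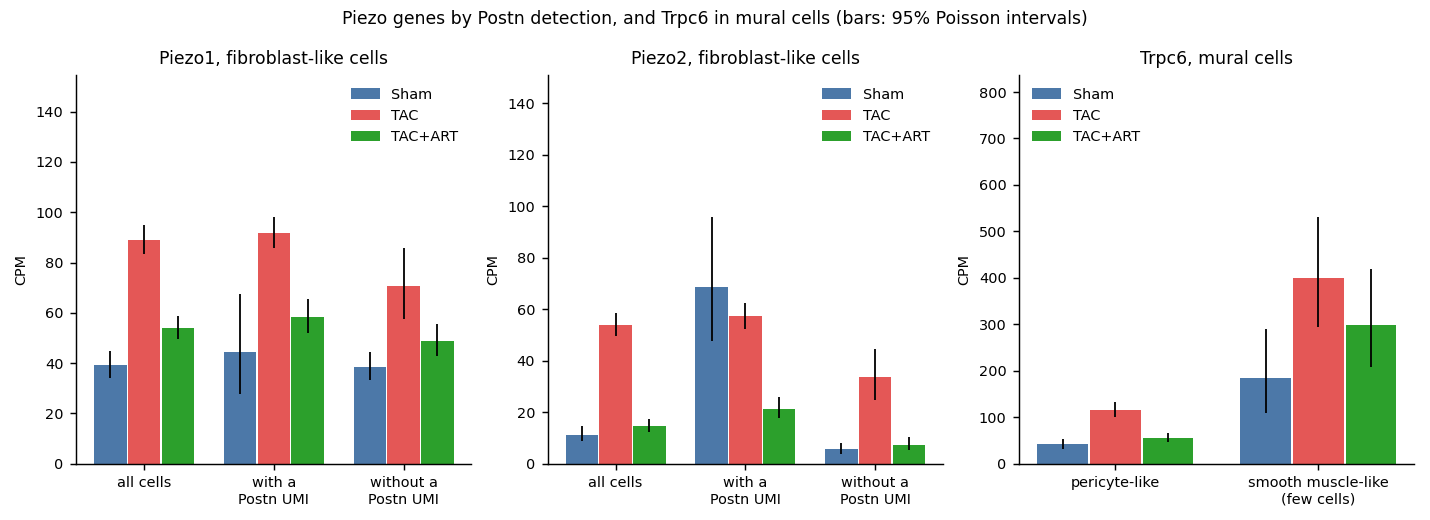
CPM of Piezo1 and Piezo2 in all fibroblast-like cells and in those with and without a Postn UMI, and of Trpc6 in pericyte-like and smooth muscle-like cells, with 1 bar per library and exact Poisson 95% intervals. Piezo2 is highest in TAC among all cells (54.0 CPM) and among cells without a Postn UMI (33.6 CPM). It is not highest in TAC among cells with one (57.3 against 68.7 CPM in Sham, the latter on 34 UMIs in 88 cells).

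Piezo2 in endothelial-like cells went the other way. It was 78.2 CPM in Sham (69.7 to 87.4), 59.5 under TAC (54.5 to 64.8) and 49.6 under TAC+ART (44.7 to 54.8), and Sham was highest, with log2 ratios of -0.40 (-0.60 to -0.19) and -0.26 (-0.46 to -0.07). Cells with a UMI of Vwf, the gene of von Willebrand factor, had 152, 83.8 and 91.4 CPM, and cells without it 48.3, 46.7 and 28.8. In the first the low step was between Sham and TAC (-0.86, -1.14 to -0.57), in the second between TAC and TAC+ART (-0.69, -0.99 to -0.40). The largest cluster of endothelial-like cells in TAC was not that of Sham and TAC+ART. Cluster 0 was the largest in Sham (591 of 1044 cells) and TAC+ART (877 of 1902), with 380 cells in TAC, and cluster 2 the largest in TAC (949 of 2043), with 64 and 328 cells in Sham and TAC+ART. Cluster 2 had 25.8 CPM of Piezo2 over all libraries and cluster 12 had 4.66. Cluster 5 had 212, 132 and 157 CPM by library and cluster 0 had 31.7, 58.0 and 34.0. In cluster 0 TAC was highest, against the direction of the class.

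Trpv4 (ENSMUSG00000014158.12) lies on chromosome 5, bases 114622152 to 114658421 on the minus strand, with 16 exons. Macrophage-like cells had 104 CPM in Sham (88.0 to 122), 105 under TAC (96.9 to 113) and 112 under TAC+ART (102 to 122). The 3 libraries did not differ beyond counting error (log2 ratios 0.01, -0.25 to 0.28, and 0.09, -0.08 to 0.26), although cluster 6 held most macrophage-like cells of Sham and TAC+ART (236 and 754) and cluster 7 most of TAC (937). Clusters 6 and 7 had 120 and 115 CPM over all libraries, and cluster 10 had 49.6. A Trpv4 UMI was found in 34.0%, 36.4% and 36.5% of macrophage-like cells, against 0.823%, 1.70% and 1.57% of fibroblast-like cells, which are deeper. Endothelial-like cells had 50.2, 48.9 and 48.5 CPM, a flat set that overlapped the lymphatic endothelial-like values of 55.3, 43.2 and 45.1. Endocardial-like cells had 33.6, 40.9 and 26.1 CPM, with a TAC+ART over TAC ratio of -0.64 (-1.24 to -0.08). Endothelial-like cluster 5 stood at 93.5, 88.9 and 97.4 CPM and cluster 0 at 24.5, 35.5 and 32.6, a wider gap than that between the libraries of the class. Fibroblast-, pericyte- and cardiomyocyte-like cells held at most 6.45 CPM.

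Trpc1 (ENSMUSG00000032839.13) lies on chromosome 9, bases 95705082 to 95750375 on the minus strand, with 13 exons. Its channel subunit often joins other TRPC subunits. Pericyte-like cells had 141 CPM in Sham (123 to 160), 111 under TAC (96.1 to 128) and 131 under TAC+ART (116 to 147), the Sham value being the highest and TAC the lowest. The ratio was -0.34 in TAC over Sham (-0.62 to -0.06) and 0.23 in TAC+ART over TAC (-0.03 to 0.50). The few smooth muscle-like cells, 18 to 22 a library, had 112, 93.6 and 96.9 CPM on 11 UMIs each. Fibroblast-like cells came next with 85.6 (77.9 to 93.8), 64.0 (59.3 to 69.0) and 76.3 CPM (71.0 to 81.8), below every pericyte-like value. Their order was the same, with Sham highest and TAC lowest (-0.42, -0.59 to -0.24, and 0.25, 0.10 to 0.40). In all 6 classes past the minimum Trpc1 was lower in TAC than in Sham, with the interval below 0 in 3. Cardiomyocyte-like cells had 46.7, 30.8 and 35.9 CPM, a range that overlapped the lymphatic endothelial-like 35.8 to 42.5. Their ratio of -0.59 (-1.15 to -0.07) was -0.02 in cells of at most 1% mitochondrial UMIs. Endocardial-like cells had 15.8 to 24.4 CPM, endothelial-like cells 11.4 to 14.6 and macrophage-like cells 3.60 to 7.62, each range below the one before.

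Trpc6 (ENSMUSG00000031997.9) lies on chromosome 9, bases 8544142 to 8680741 on the plus strand, with 13 exons, and the noncoding gene Gm32014 overlaps 36669 bases of it on the other strand. Its promoter is shown because Trpc6 was past 2-fold in both comparisons (RefSeq, GRCm38.p6, chr9:8543892-8544191, plus strand). Capitals mark a CArG box, the type of element bound by serum response factor, a regulator of contractile genes in smooth muscle.
Trpc6: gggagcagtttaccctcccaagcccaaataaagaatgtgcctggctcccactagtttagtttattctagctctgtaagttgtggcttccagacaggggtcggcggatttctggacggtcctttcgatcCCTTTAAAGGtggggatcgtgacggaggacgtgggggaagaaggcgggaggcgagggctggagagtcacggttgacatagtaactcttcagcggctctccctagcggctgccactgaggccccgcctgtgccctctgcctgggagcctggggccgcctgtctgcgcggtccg
The box is at positions -122 to -113, and 1.629% of the 32851 promoters hold one. It reads the same on both strands. The window is 60.0% G and C with 17 CG pairs. A match describes letters and is not a measured site. The motifs searched on both strands were the TATA box (TATAAA), a TEAD motif (GGAATG, in 14.66% of promoters), an AP-1 motif (TGANTCA, 7.808%), an NFAT core (GGAAAA, 23.36%), an ETS motif (CCGGAAG, 8.858%), the CArG box and a KLF motif (CCACCC, 31.48%). Trpv4 held the KLF motif 4 times on the reverse strand, at -230, -226, -34 and -20, the first 2 overlapping, and Trpc1 and Trpm7 held none of the 7. Promoters of 5 members were searched, and those of Piezo2 and Trpm4 were not.

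Pericyte-like cells had Trpc6 at 41.6 CPM in Sham (32.3 to 52.7), 116 under TAC (100.2 to 132) and 56.0 under TAC+ART (46.6 to 66.8), on 68, 206 and 123 UMIs. TAC stood above both other libraries, whose intervals overlapped. The log2 ratios were 1.47 (1.07 to 1.89) and -1.04 (-1.38 to -0.72). Cells with a UMI numbered 24 of 375 in Sham, 64 of 355 in TAC and 42 of 466 in TAC+ART (6.40%, 18.0% and 9.01%, and 2.67%, 6.76% and 4.29% after thinning). Those cells held 2.83, 3.22 and 2.93 UMIs each and the highest single cell 18, 19 and 14. In endothelial-like cells the share was 0.0958%, 0.294% and 0.158%, at median depths of 3530 to 4022 UMIs against 4047 to 4804. Outside pericyte-like cells no class of at least 50 cells reached above 1.34 CPM. The smooth muscle-like cells had 184 CPM in Sham (109 to 290), 399.9 under TAC (294 to 532) and 299 under TAC+ART (207 to 418), on 18, 47 and 34 UMIs, all above the pericyte-like values. The 6 smooth muscle markers were also summed in pericyte-like cells, where they stood at 63.6, 98.7 and 104 CPM, against 5899 to 7420 in smooth muscle-like cells. In the 306, 252 and 333 pericyte-like cells with no UMI of these markers, chosen after the values were seen, the ratios were 1.84 and -1.44.

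Trpm4 (ENSMUSG00000038260.10) lies on chromosome 7, bases 45302632 to 45333780 on the minus strand, with 25 exons. It is known in the heart for conduction defects that its variants cause. Cardiomyocyte-like cells had 64.2 CPM in Sham (54.1 to 75.6), 40.8 under TAC (30.9 to 52.9) and 35.1 under TAC+ART (27.9 to 43.5). Sham was highest, and TAC and TAC+ART overlapped (-0.64, -1.12 to -0.20, and -0.22, -0.72 to 0.29). Cells of at most 1% mitochondrial UMIs, 219, 80 and 207 of them, had 69.3, 67.0 and 36.5 CPM, so there TAC lay beside Sham and TAC+ART alone was low (ratios -0.04 and -0.88). Their choice was made after the values were seen. In fibroblast-like cells Trpm4 was higher in TAC, with 25.4 (21.4 to 30.1), 37.0 (33.4 to 40.8) and 30.7 CPM (27.4 to 34.3), and ratios of 0.54 (0.25 to 0.83) and -0.27 (-0.49 to -0.05). Endothelial-like cells were lower in TAC than in Sham, with 35.0, 25.1 and 27.0 CPM (-0.48, -0.79 to -0.17). Pericyte-like cells at 34.6 to 42.2 CPM, endocardial-like at 25.4 to 31.7, macrophage-like at 25.0 to 34.6 and lymphatic endothelial-like at 19.3 to 30.7 overlapped with their neighbours.

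Trpm7 (ENSMUSG00000027365.14) lies on chromosome 2, bases 126791565 to 126876230 on the minus strand, with 39 exons. It was lower in TAC than in Sham in 7 of 7 classes, with the interval below 0 in 4, and higher in TAC+ART than in TAC in 6 of 7. Cardiomyocyte-like cells showed the widest gap, with 374 CPM in Sham (349 to 400), 201 under TAC (178 to 226) and 334 under TAC+ART (311 to 358). TAC was low and the other libraries were nearer each other. The log2 ratios were -0.89 (-1.09 to -0.70) and 0.73 (0.53 to 0.93). Here the mitochondrial share moved with the level. In cells of at most 1% mitochondrial UMIs the values were 396, 274 and 409 CPM and the ratios -0.53 and 0.57, so the direction stood and the size was smaller. In cardiomyocyte-like cluster 16, of median mitochondrial share 4.31%, Trpm7 was 93.0, 79.4 and 106 CPM. In cluster 13, of share 0.501%, it was 398, 268 and 390. Fibroblast-like cells had 329, 251 and 278 CPM (-0.39, -0.48 to -0.31, and 0.15, 0.07 to 0.23), endothelial-like cells 334, 259 and 279 (-0.37, -0.46 to -0.27, and 0.11, 0.02 to 0.20). Endocardial-like cells had 320, 231 and 266 CPM (-0.47, -0.68 to -0.26). Pericyte-, macrophage- and lymphatic endothelial-like cells differed by less, with ratios of TAC over Sham between -0.19 and -0.05.

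Other channels and the pathways around them were counted in fibroblast-like cells, where the median log2 ratio over all genes was 0.02 for TAC over Sham and -0.04 for TAC+ART over TAC. As above, 7.51% of genes there were higher past 2-fold and 5.15% lower in the first comparison, and 2.67% higher and 1.80% lower in the second. Of 9 other TRP channels past the minimum 1 was higher past 2-fold and none lower, with a median of -0.02. It was Trpm6, the close relative of Trpm7 that carries magnesium in kidney and gut, at 7.61, 51.4 and 32.2 CPM (2.74, 2.30 to 3.25, and -0.67). The lowest was Trpv3 at -0.83. Of 7 other stretch-gated or volume-gated channels 1 was higher and 1 lower, with a median of 0.10. Lrrc8a, the required subunit of volume-regulated anion channels, had 16.7, 40.1 and 36.0 CPM (1.26, 0.93 to 1.61). Kcnk2, which encodes the stretch-gated potassium channel TREK-1, had 251, 81.4 and 134 CPM and was low in TAC (-1.62, -1.75 to -1.50, and 0.72, 0.59 to 0.84). Of 7 Piezo and TRP partners none was past 2-fold in either comparison, and ratios of TAC over Sham ran from -0.12 for Trpc4ap to 0.70 for Cav3, which encodes caveolin-3, with a median of 0.14. Cav3 had 30.4 to 50.9 CPM in cardiomyocyte-like cells, against 6.87 to 11.2 in fibroblast-like cells.

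Of 11 genes of YAP and TEAD with their targets 3 were higher in TAC past 2-fold and none lower, with a median of 0.52. They were the targets Ccn2 at 49.0, 440.0 and 242 CPM (3.16 and -0.86), Ankrd1 at 47.2, 280.4 and 162 (2.57 and -0.79) and Ccn1 at 13.7, 44.4 and 23.6 (1.68 and -0.91), while Tead3, a transcription factor of the list, was lowest at -0.09. Ankrd1 is best known from cardiomyocytes, and in cardiomyocyte-like cells it stood at 415, 3558 and 1543 CPM. In each of the other 6 classes it was lowest in Sham (40.2 to 67.6 CPM) and highest in TAC (280.4 to 455 CPM). Cardiomyocyte markers in fibroblast-like cells summed to 4053, 4459 and 4858 CPM, so the Ankrd1 UMIs of fibroblast-like cells cannot be told apart here from cardiomyocyte RNA. Ccn2 and Ccn1 had at most 134 and 55.0 CPM in cardiomyocyte-like cells, and for Ccn1 that is above its highest fibroblast-like value of 44.4. The part of RNA from other classes in these ratios was not tested. Of 6 genes of store-operated calcium entry 1 was higher, Orai2, a pore subunit, at 17.8, 41.2 and 16.8 CPM (1.20, 0.89 to 1.54, and -1.29, -1.56 to -1.03). The median was 0.35, and the calcium sensor of the store, Stim1, was lowest at -0.25. Orai2 was highest in TAC also in macrophage-like cells (15.9, 27.6 and 12.5 CPM) and in endothelial-like cells (3.03, 6.16 and 4.59 CPM). The remaining classes held too few UMIs of it. Of 12 calcineurin and NFAT genes none was past 2-fold, with a median of 0.18, and Rcan2, an inhibitor of calcineurin, was lowest at -0.98 and then 0.85. Rcan1, the other Rcan gene of the list, went the other way at 0.53 and -0.35. Highest was Myoz2 at 0.75 and then -0.09, with 34.2, 57.4 and 53.8 CPM, against 298 to 548 in cardiomyocyte-like cells. Rcan2 had 125, 63.2 and 114 CPM in fibroblast-like cells, against 2416, 944 and 1617 in cardiomyocyte-like cells, where Sham was also highest and TAC lowest. The part of cardiomyocyte RNA in the Rcan2, Rcan1 and Myoz2 ratios of fibroblast-like cells was not tested. Of 11 genes of Gq and phospholipase C 1 was lower, the angiotensin receptor Agtr1a at 13.2, 6.57 and 11.2 CPM (-1.0, -1.50 to -0.51, a value on the 2-fold line), and Itpr3, a calcium release channel, was highest at 0.55, with a median of 0.14 over the list. In TAC+ART over TAC Trpm6 was the lowest of the other TRP channels (-0.67). The lowest and highest genes were Tmem120a (-0.39) and Kcnk2 (0.72) of the stretch-gated or volume-gated channels, and Cav3 (-0.49) and Cav1 (0.33) of the partners. They were Ccn1 (-0.91) and Tead3 (0.12) of YAP and TEAD, Orai2 and Orai1 (0.04) of calcium entry, Ppp3cc (-0.38) and Rcan2 (0.85) of calcineurin and NFAT, and Itpr3 (-0.64) and Agtr1a (0.76) of Gq and phospholipase C. List medians there ran from -0.27 for calcium entry to 0.23 for the other TRP channels. In that comparison Orai2 was the only gene of these lists past 2-fold in fibroblast-like cells.

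**Figure D4:**
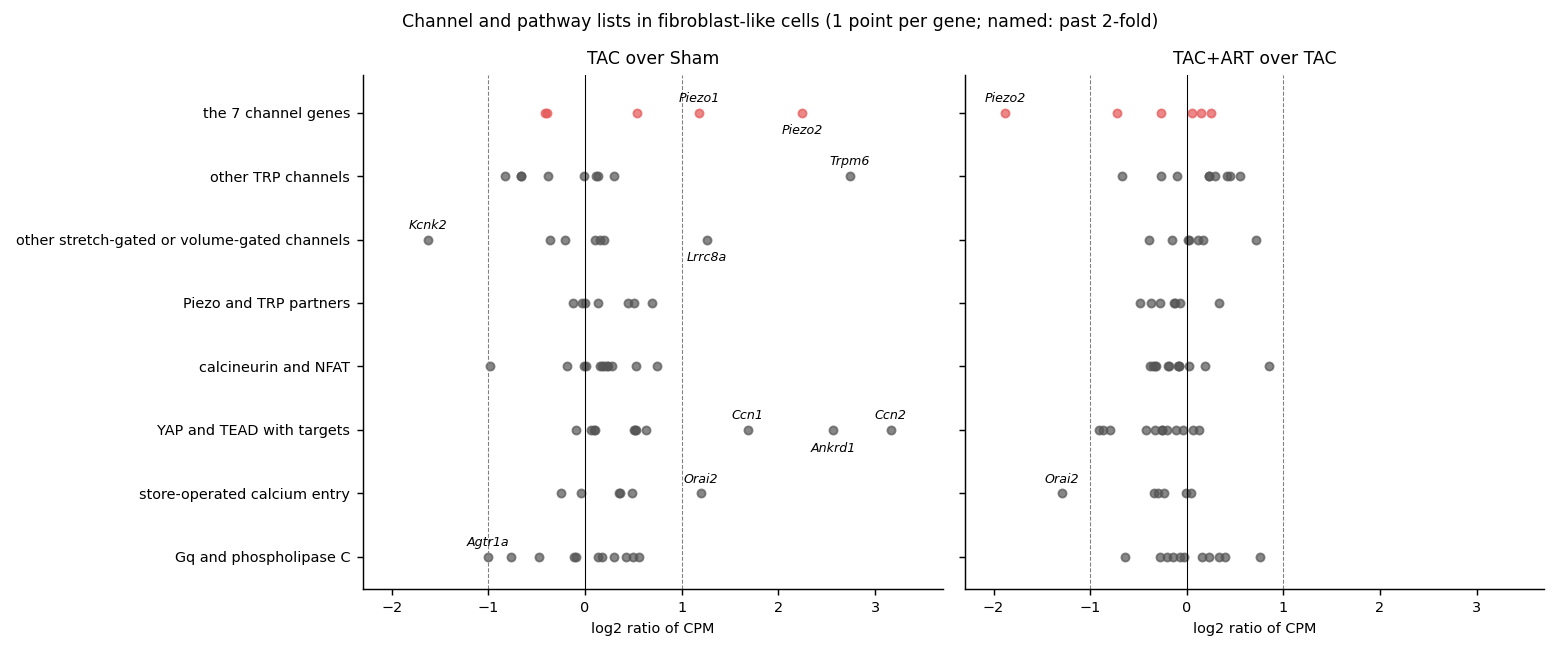
Log2 ratio of CPM in fibroblast-like cells for each gene of the channel and pathway lists past the minimum (1 point per gene), TAC over Sham on the left and TAC+ART over TAC on the right, with dashed lines at 2-fold and names for genes past it. Ccn2, Trpm6 and Ankrd1, the last abundant in cardiomyocyte-like cells, lie farthest to the right on the left side (3.16, 2.74 and 2.57), Kcnk2 lies to the left (-1.62), and on the right side only Piezo2 and Orai2 pass 2-fold.

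In pericyte-like cells the same lists were read beside Trpc6. No other TRP channel was past 2-fold in TAC over Sham among 4 past the minimum. In TAC+ART over TAC 2 of 6 were higher, where 1.23% of all genes were: Trpm3 at 14.0 against 36.9 CPM (1.38, 0.73 to 2.10) and Trpc4 at 8.41 against 19.1 (1.15, 0.30 to 2.14). Cav1, which encodes caveolin-1, was also higher (33.1 against 81.5 CPM, 1.29), and so was Plcb1, a phospholipase C (38.7 against 90.6 CPM, 1.22). Trpm3, Cav1 and Plcb1 are abundant in endothelial-like cells, at 591 to 665, 858 to 973 and 2225 to 2441 CPM, while Trpc4 had at most 0.787 CPM there. The 9 endothelial markers in pericyte-like cells, each with UMIs in every library, summed to 351, 416 and 622 CPM, highest in TAC+ART as well, and their part in these ratios was not tested. In TAC over Sham 1 of 11 genes of YAP and TEAD was past 2-fold, Ankrd1 (48.9, 393 and 191 CPM), and 1 of 11 of calcineurin and NFAT, Myoz2, a calcineurin-binding protein (39.1, 84.7 and 63.3 CPM), where 3.96% of genes were higher. Both are cardiomyocyte genes, at 415 to 3558 and 298 to 548 CPM in cardiomyocyte-like cells, and Myoz2 too was lowest in Sham and highest in TAC in 7 of 7 classes. Cardiomyocyte markers in pericyte-like cells summed to 5007, 6572 and 6128 CPM, so neither gene can be told apart from cardiomyocyte RNA in this class. The calcineurin inhibitor Rcan2 had 325, 164 and 314 CPM (-0.98 and 0.93), while Rcan1 went the other way (0.62 and -0.53). Rcan2 too is abundant in cardiomyocyte-like cells, at 2416, 944 and 1617 CPM, with Sham highest and TAC lowest there as well. The part of cardiomyocyte RNA in the Rcan2 and Rcan1 ratios of pericyte-like cells was not tested.

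The genes most like each member were taken by Pearson's r of log2(CPM + 5) over 21 sums of 7 classes and 3 libraries, among 10637 genes. The sums share libraries and depth, so r is a description. Piezo1 was most like Klf2, the flow-induced transcription factor of endothelium (r 0.96), Pxdc1 (0.96) and Plscr3 (0.95). Piezo2 was most like Adam12, a membrane protease (0.96), Sema3d (0.94) and Fxyd6 (0.93). Trpv4 was most like Dennd2c (0.97), Naip2 (0.97) and Skap2 (0.95). Trpc1 was most like Plekhh3 (0.96), Arhgap42 (0.93) and Ube2o (0.93), and Trpc6 most like Rgs4, a regulator of G protein signalling (0.98), Iqsec3 (0.97) and Olfr558 (0.97). The members found in all classes had lower values, with Clpb (0.84), Fblim1 (0.78) and Garem1 (0.78) for Trpm4 and 9430091E24Rik (0.83), Htr1f (0.77) and Ubr2 (0.77) for Trpm7.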

How the data were processed

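RNA was counted per droplet barcode in 3 libraries. The files the authors deposited hold unnormalised UMI counts, made with Cell Ranger and Seurat on mm10 per the submitters' processing notes. The sources used here give no versions or filters. Kept barcodes had 500 or more UMIs, 300 or more genes and no more than 10% mitochondrial UMIs (2 Sham and 1 TAC barcodes removed). Doublet scores removed 112, 440 and 376 more. Cells were gated on 97 markers of 14 classes (at least 2 markers and odds of 20), leaving 1273 of 17090 without a class. Scanpy 1.11.5 made 27 clusters without the channel genes, 3 of them unnamed, and 98.5% of 15502 cells named both ways had the same name. UMIs were summed per class and library. Ratios carry 0.5 added counts, and intervals are exact Poisson (CPM) or conditional binomial (ratios). Each ratio needed 50 UMIs. Named are the members, the highest and lowest genes of each list and the 3 most alike, except for 1 list gene that is not reported here. Members and lists were chosen with earlier results of these data known. Scripts were tested on simulated data.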

Additional observations from a re-analysis of the deposited data

Results flagged for a closer look

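Piezo2 in TAC over Sham had a log2 ratio of 2.24 in fibroblast-like cells and -0.40 in endothelial-like cells, with intervals on opposite sides of 0. Trpm4 had 0.54 in fibroblast-like cells, against -0.64 in cardiomyocyte-like and -0.48 in endothelial-like cells. In cardiomyocyte-like cells of at most 1% mitochondrial UMIs, chosen after seeing the data, the Trpm4 ratio was -0.04, near 0. With 1 library a group the difference between the classes was not tested for either gene.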

How the results depend on the processing

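The pairs past 2-fold in TAC over Sham numbered 3 and became 5 with cells of at most 8000 UMIs (adding Trpm4 and Trpm7 in cardiomyocyte-like cells, lower), 5 with a mean over cells (adding Piezo1 in pericyte-like and Trpm7 in cardiomyocyte-like cells) and 6 with a minimum of 1 UMI. In TAC+ART over TAC the count of 2 became 7 with that minimum and stayed 2 in the other settings run. The cause was not tested for the depth limit and the mean; the lower minimum admits sums of few UMIs. The class where a member was highest changed for Trpm4 and Trpm7 with cells of at most 8000 UMIs (5 of 7 members kept theirs) and for Trpm7 with the mean over cells (6 of 7), to pericyte-like. Over 10 alternatives Piezo2 in fibroblast-like cells ranged from 2.14 to 2.50 and from -2.09 to -1.83, Piezo1 from 1.09 to 1.20 and from -0.77 to -0.68, and Trpc6 in pericyte-like cells from 1.35 to 1.84 and from -1.44 to -1.01. Over 9, cardiomyocyte-like Trpm7 ranged from -1.21 to -0.53 in TAC over Sham and Trpm4 from -1.14 to -0.04, and Trpm4 in TAC+ART over TAC from -0.88 to 0.26, which crosses 0. The settings of at most 1% mitochondrial UMIs and of cells without lymphatic or smooth muscle markers were chosen after seeing the data. No paired analysis was possible because each group was 1 library, so no replicate could be left out. Few cells exceeded the upper end of depth in the files, and classes of under 50 cells allow values only.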
